A study of Mus musculus with 8 samples.

Results

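The miR-15 family, to which miR-16, miR-195 and also miR-497 belong, was followed in myoblasts, the proliferating precursor cells of skeletal muscle, from old and young mice. Its members were taken by name: every precursor row called mmu-mir-15a, mmu-mir-15b, mmu-mir-16-1 or mmu-mir-16-2, and the rows of mmu-mir-195 (such as mmu-mir-195a) and mmu-mir-497 with at most a letter added, which gave 8 of the 1181 precursors listed. Small RNA of 4 old and 4 young C57BL/6J mice was sequenced, with 1 library per mouse as the labels number them (old 1 to old 4, young 1 to young 4). No genotype, treatment or age in months is given for either group, nor the muscle, the isolation of the cells or the time in culture, so that "old" and "young" stand only as the labels use them. The series title concerns miR-431 and the regeneration of old muscle, and the comparison made here asks whether this family differed between old and young cells.

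Apart from miR-497b, which was taken in by its name, these miRNAs hold the same seed, the bases 2 to 8 that pair with a target mRNA. They are therefore expected to share many targets. In mammalian cells the family is known to restrain the cell cycle, with cyclin D1, cyclin E1 and other G1 regulators among its targets, and to repress the survival factor Bcl2. In muscle, miR-195 and miR-497 are known from mouse work as brakes on satellite cell proliferation that promote quiescence, and miR-15 and miR-195 are known to rise in the heart after birth, when muscle cells stop dividing.

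The mature sequences are shown because the shared seed (capitals) defines the family and because their likeness limits what the precursor rows can tell apart. They are RefSeq sequences on GRCm38.p6, written 5′ to 3′. The last of the 7, from a cluster on chromosome X, is the relative outside the named rows that was abundant in these cells.
mmu-miR-15a-5p: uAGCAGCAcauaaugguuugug
mmu-miR-15b-5p: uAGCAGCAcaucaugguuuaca
mmu-miR-16-5p: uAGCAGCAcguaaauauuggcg
mmu-miR-195a-5p: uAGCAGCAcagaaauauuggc
mmu-miR-195b: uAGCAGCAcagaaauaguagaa
mmu-miR-497a-5p: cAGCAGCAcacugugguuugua
mmu-miR-322-5p: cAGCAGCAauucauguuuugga
Over the first 21 bases, miR-16-5p and miR-195a-5p were identical at 19 positions and miR-15a-5p and miR-15b-5p at 18. miR-16-5p and miR-497a-5p were the least alike of the named members, with 11 identical positions. Among 1738 mature mouse sequences in the RefSeq table, 11 entries carried this seed.

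The members lie in 3 clusters and at 1 isolated site (GRCm38, the same build as mm10). mir-15a (chr14:61632027-61632110) and mir-16-1 (chr14:61631880-61631972), both on the minus strand, are separated by 54 bases within Dleu2, a long non-coding RNA gene. mir-15a is intronic in the 8 annotated Dleu2 transcripts that span it, whereas 13 bases of mir-16-1 overlap an exon of 1 Dleu2 transcript. mir-15b (chr3:69009772-69009835) and mir-16-2 (chr3:69009902-69009996), on the plus strand, are 66 bases apart in an intron of Smc4, which encodes a condensin subunit needed for chromosome condensation. mir-497 (chr11:70234717-70234800) and mir-195a (chr11:70235042-70235135), on the plus strand, are 241 bases apart and overlap no other annotated gene. mir-497b (chr11:70234692-70234816) lies on the opposite strand and contains the whole of mir-497. mir-195b (chr2:56785811-56785907, plus strand) stands alone.

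The 2 hairpins that yield miR-16 are shown with the mature miR-16-5p in capitals, since it is the same 22 bases in both.
Mir16-1 hairpin: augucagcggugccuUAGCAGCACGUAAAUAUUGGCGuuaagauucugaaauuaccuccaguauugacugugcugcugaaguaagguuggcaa
Mir16-2 hairpin: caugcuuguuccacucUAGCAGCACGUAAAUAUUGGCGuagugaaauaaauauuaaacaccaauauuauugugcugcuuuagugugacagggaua
Only the flanks, the loop and the opposite arm separate them, and the opposite arms were identical at 12 of 22 positions. A read of miR-16-5p therefore cannot be assigned to chromosome 14 or chromosome 3.

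Abundances are the authors' log2 values, with linear values under 1 listed as 0. They behave as RPKM (reads per kilobase of a precursor's length, relative to the reads of the library), so that levels of different precursors are compared per length. On that reading the libraries held 25.1 to 39.4 M reads, and every young library was larger than every old one. The 359 precursors that reached a linear value of 10 in 4 or more libraries were tested for a difference between old and young with limma, and p-values were adjusted over all 359. The muscle markers mir-206 and mir-486 were abundant (means of 15.81 and 21.35 over the 8 libraries), whereas the mir-1a-1 and mir-1a-2 rows of the muscle miRNA miR-1 were near the floor (means of 2.16 and 1.79, both 0 in young 4) and were not compared. Of the 6 blood markers, 3 were at 0 in all libraries (mir-144, mir-142 and mir-223). mir-451a, the red cell marker, was above 0 only in young 1 (0.89). Fewer cells of a type and less RNA per cell cannot be told apart in such bulk libraries.

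mir-15b and miR-16, listed under both mir-16 rows, were the abundant members, and mir-15b was the highest in every library. In library order, mir-15b stood at 10.71, 11.41, 11.91 and 12.95 among the old and at 12.08, 10.85, 11.30 and 12.62 among the young libraries. The old and young values interleaved, with old 4 and young 4 highest. With 2997 to 15878 recovered reads per library, mir-15b ranked 74th of the 1181 precursors by mean.

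mir-16-2 was at 8.21, 9.28, 9.39 and 10.47 in the old and at 8.97, 9.07, 8.77 and 9.95 in the young libraries. mir-16-1 was at 8.24, 9.41, 9.41 and 10.55 in the old and at 8.96, 9.13, 8.89 and 10.08 in the young libraries. For both rows old 1 was lowest, old 4 highest and young 4 second. The values of mir-16-1 and mir-16-2 differed by -0.01 to 0.13 in the 8 libraries, while the log2 ratio of their lengths is 0.03. In recovered reads the ratio of mir-16-1 to mir-16-2 was 0.972 to 1.07, from 786 and 787 reads in old 1 to 3967 and 3703 reads in young 4. The rows may repeat the same reads or split them about evenly, since the handling of multi-mapped reads was not given. In either case they count here as about 1 measurement of miR-16, whose chromosomal source cannot be read from them.

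mir-15a, the neighbour of mir-16-1 in Dleu2, was far lower. It measured 3.77, 4.73, 5.27 and 5.97 in the old and 3.06, 3.85, 4.15 and 5.09 in the young libraries. Old 4 was highest and young 1 lowest, and young 4 lay above old 1 and old 2. These values rest on 32, 58, 85 and 132 recovered reads in the old and on 21, 39, 49 and 113 in the young libraries. The exact 95% Poisson interval of the smallest, 21 reads, runs from 13.0 to 32.1 and covers counting error only.

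The mir-497 and mir-195a cluster was near the floor. mir-497 was at 2.77, 3.68, 2.77 and 4.01 in the old and at 2.36, 4.61, 1.12 and 4.52 in the young libraries. The young libraries thus held both the lowest and the highest value, with 6 reads in young 3 and 66 in young 2. mir-195a was at 0.92, 2.41, 2.02 and 3.46 in the old and at 1.96, 3.16, 2.55 and 2.19 in the young libraries, which corresponds to 5 to 27 reads. The 5 reads of old 1 have an exact Poisson interval from 1.62 to 11.7, and mir-195a did not reach the level required for comparison, with a linear value of 10 or more in 1 library.

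mir-497b is no independent member in these data, and the seed of its mature sequence (ACCACAG) is not that of the family. Its values differed from those of mir-497 by -0.58 to -0.57 in every library, and the log2 ratio of their lengths is -0.57. mir-195b was listed at 0 in all 8 libraries. The comparison of old with young therefore covered 5 of the 8 rows (mir-15a, mir-15b, mir-16-1, mir-16-2 and mir-497), which hold about 4 separate measurements.

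**Figure D1:**
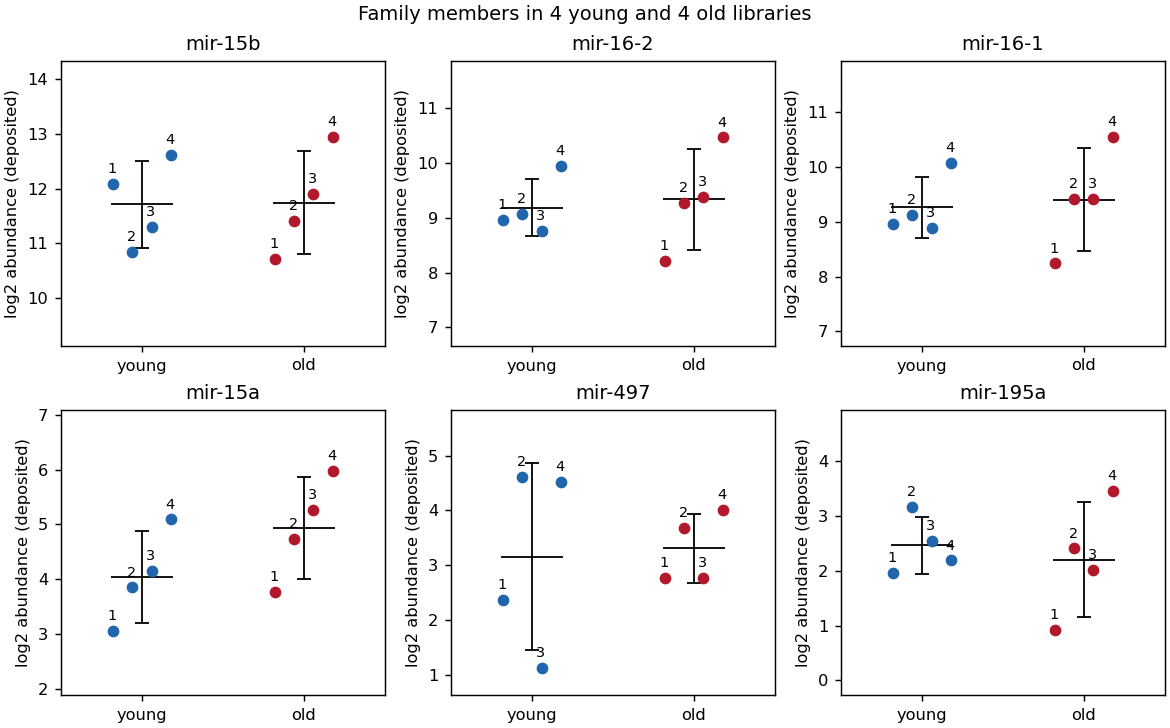
Deposited log2 abundance (y axis) of 6 family members in the young and old libraries; points are libraries with their number, horizontal bars are group means and whiskers the SD (n = 4 each). Each panel spans the same log2 range, and the young and old points overlap for every member; mir-15b lies near 11.7 and mir-195a near 2.3.

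By mean level per length the order was mir-15b, mir-16-1, mir-16-2, mir-15a, mir-497, mir-195a and mir-195b. mir-15b exceeded mir-16-1 by 2.40 ± 0.41 on the log2 scale (SD, n = 8), in 8 of 8 libraries. mir-16-2 exceeded mir-15a by 4.78 ± 0.56 in 8 of 8 libraries. The lower neighbours were not separated in each library: mir-15a exceeded mir-497 by 1.26 ± 1.20 and in 7 of 8 libraries, and mir-497 exceeded mir-195a by 0.90 ± 1.15 and in 7 of 8. With the mir-16 rows counted once and mir-497b left out, mir-15b held 68.0% to 85.1% of the recovered reads of the family and miR-16 held 14.4% to 29.7%. mir-15a, mir-195a and mir-497 held at most 1.03%, 0.483% and 1.18%. The whole family made up 0.0137% of the reads in old 1 and 0.0651% in old 4, the extremes of the 8 libraries. All these shares average the mir-16 rows, as if both repeat the same reads. If the rows split the reads instead, the shares of miR-16 and of the whole family are understated. Those of the other members within the family are then overstated.

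No member passed the test between old and young myoblasts. Of the 5 compared in limma, 0 passed an adjusted p of 0.05 in either direction and 0 passed an unadjusted p of 0.05, against 0% and 1.11% of the 359 compared precursors. Their means were higher in old libraries for 5 of 5, against 46% of all compared precursors, with a median log2 difference of 0.15 against -0.05. The limma adjusted p was 0.995 for each of the 5 and for the precursor with the smallest p. The old and young values overlapped for each of the 5 members, and they failed to overlap for 0.836% of all compared precursors.

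mir-15b, at 11.745 ± 0.94 in the old and 11.71 ± 0.79 in the young libraries (SD, n = 4 each), differed by 0.03 with an SE of 0.55. Its 95% interval ran from 0.437-fold to 2.40-fold in old relative to young. mir-16-1, at 9.40 ± 0.94 and 9.265 ± 0.55, differed by 0.14 with an SE of 0.51, and mir-16-2, at 9.34 ± 0.92 and 9.19 ± 0.52, by 0.15 with an SE of 0.50. For both the interval ran from about 0.5-fold to 2.4-fold (0.494 to 2.45 and 0.505 to 2.43). On the deposited scaling, smaller changes than these cannot be detected against the spread between these libraries. The direction was not stable: without old 4 the differences of mir-15b, mir-16-1 and mir-16-2 were -0.37, -0.245 and -0.23.

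mir-15a had the widest difference of the family, 4.935 ± 0.93 in old against 4.04 ± 0.84 in young libraries. The log2 difference was 0.90 with an SE of 0.62 and an interval from -0.49 to 2.29 (limma adjusted p = 0.995, two-sided exact permutation p = 0.229). In absolute size it ranked 61st of the 359 differences, and it kept its direction under all alternatives tried, from 0.55 to 1.29. mir-497, at 3.31 ± 0.64 and 3.15 ± 1.71, differed by 0.155 with an SE of 0.82, and by -0.52 without young 3. mir-195a, at 2.20 ± 1.05 in old and 2.465 ± 0.52 in young libraries, gave a two-sided exact permutation p of 0.714. Without a filter, limma gave it a difference of -0.26 with an SE of 0.63 and an adjusted p of 0.983.

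**Figure D2:**
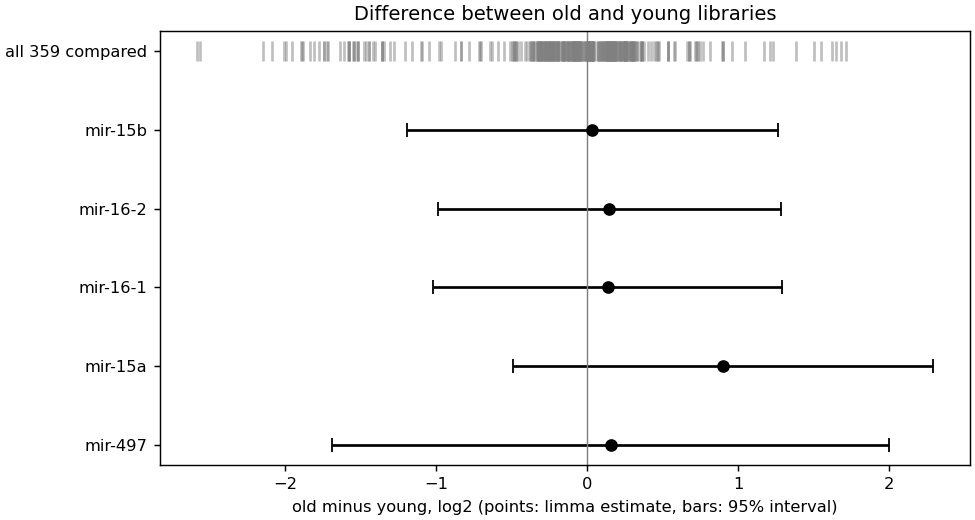
Old minus young difference in log2 abundance (x axis) for the 5 compared members, with the limma estimate as a point and its 95% interval as a bar; the upper row marks the differences of all 359 compared precursors. All 5 intervals include 0, and mir-15a at 0.90 lies farthest from it.

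The ratio of mir-16-1 to its Dleu2 neighbour mir-15a separated old from young libraries, but missed the threshold once corrected for the number of ratios tested. Since the mir-16-1 row takes in miR-16 from both loci, this is not a ratio within Dleu2 alone. The log2 abundance of mir-16-1 minus that of mir-15a does not depend on rescaling a library by a single factor. It was 4.47, 4.68, 4.14 and 4.58 in the old and 5.90, 5.28, 4.74 and 4.99 in the young libraries. Every old library lay below every young one, so that mir-15a was closer to the miR-16 row in old cells, by 0.76 on the log2 scale or 1.69-fold (4.47 ± 0.23 against 5.23 ± 0.50; SD, n = 4 each). The two-sided exact permutation p was 0.0286, the smallest that 4 against 4 libraries can give, and 0.114 after Benjamini-Hochberg adjustment over the 4 ratios tested. With 1 ratio alone at that smallest p, none could pass after this adjustment. The miss therefore does not measure the size of the difference. On log2(value + 10) and after quantile normalization the difference no longer passed before correction (exact permutation p = 0.0857 for each, differences of -0.48 and -0.75). It also no longer passed when old 1, old 2, old 3 or old 4 was left out (exact permutation p = 0.0571 each time). The smallest gap, between old 2 and young 3, was the step from 4.68 to 4.74, which is well inside the counting error of mir-15a (58 and 49 reads). The libraries of the groups also differ in size on the same reading, and the part of this in the ratio was not tested.

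The other ratios overlapped between the groups. In the Smc4 cluster, mir-16-2 minus mir-15b was -2.50, -2.13, -2.52 and -2.48 in the old and -3.11, -1.78, -2.53 and -2.67 in the young libraries (difference 0.115, two-sided exact permutation p = 0.714, adjusted p = 0.886). The old libraries lay close together and the young ones held both extremes. On chromosome 11, mir-497 minus mir-195a ran from 0.55 to 1.85 in old and from -1.43 to 2.33 in young libraries (difference 0.42, exact permutation p = 0.714, adjusted p = 0.886). The fourth ratio, mir-16-1 minus mir-16-2, differed by -0.01 between the groups (exact permutation p = 0.886, adjusted p = 0.886).

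The ratio of mir-15b to mir-15a, products of separate loci, was looked at after the values were seen and was not tested. mir-15b minus mir-15a was 6.94, 6.68, 6.64 and 6.98 in the old and 9.02, 7.0, 7.15 and 7.53 in the young libraries. The groups did not overlap, although old 4 (6.98) and young 2 (7.0) were nearly level. Of the 10 pairs among the 5 compared members, 3 had ratios that did not overlap between the groups, and mir-15a was in each of the 3. mir-16-1 and mir-16-2, whose values are nearly the same, account for a pair each. Among all pairs of the 359 precursors 1.22% did not overlap. mir-15a stood higher in every old library relative to 17 of the 358 other precursors (4.75%) and lower in every old library relative to 0.

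**Figure D3:**
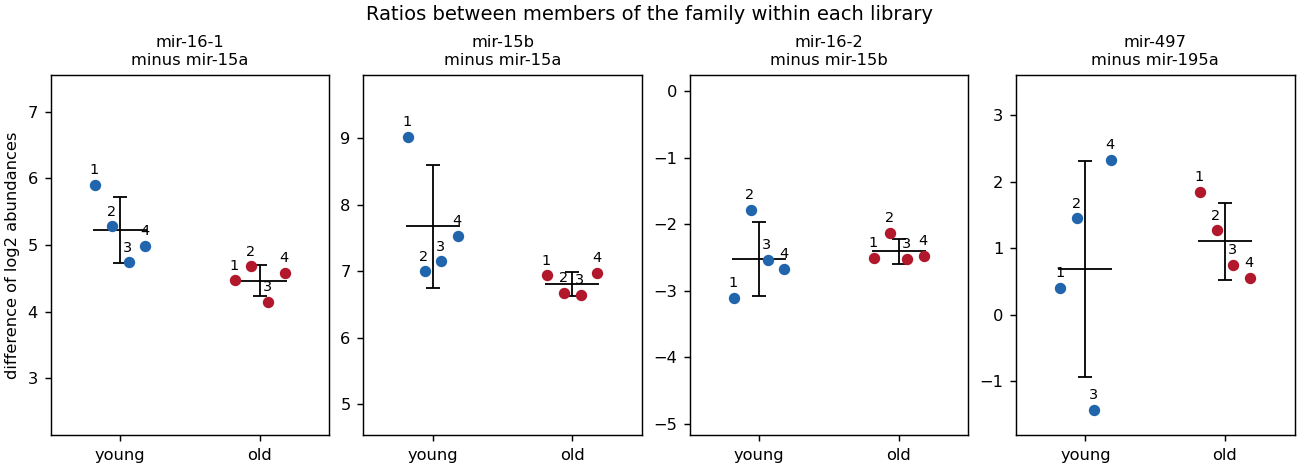
Difference of log2 abundances between 2 members in the same library (y axis) for 4 pairs, young and old libraries side by side; points are libraries with their number, bars the group mean and whiskers the SD (n = 4 each). The young and old points are apart for the pairs with mir-15a (4.14 to 4.68 in old and 4.74 to 5.90 in young for mir-16-1) and overlap for the other pairs.

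The family varied widely among libraries of the same group. mir-15b spanned 2.24 on the log2 scale over the 8 libraries, mir-16-1 2.31, mir-15a 2.91 and mir-497 3.49. The SD within groups was 0.87 for mir-15b, 0.77 for mir-16-1, 0.75 for mir-16-2, 0.88 for mir-15a and 1.29 for mir-497, against a median of 0.67 over the 359 precursors. Old 4 was the highest library for mir-15a, mir-15b and both mir-16 rows. Young 4 was second for all of these but mir-15a, where old 3 was second. This was not particular to the family. Old 4 and young 4 were also highest for mir-25 (14.71 and 14.83), mir-221 (15.12 and 15.51) and let-7g (11.60 and 11.48), but not for mir-322 (8.92 and 7.89). The share of all compared precursors with this order was not counted.

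Old 4 and young 4 were also the highest libraries for the sums of blood, endothelial and epithelial markers. For the neural and fibroblast sums they were not, although single fibroblast markers were highest there. Linear values of the 6 blood markers summed to 1539 to 4233 in old and to 1320 to 4410 in young libraries. Young 4 was highest and old 4 second. Nearly all of this sum was mir-155, a miRNA of activated immune cells. mir-150 was also highest in old 4 (4.47) and young 4 (4.32) on the log2 scale. The others did not follow, with mir-144, mir-142 and mir-223 at 0 throughout and mir-451a above 0 only in young 1. The 2 endothelial rows, mir-126a and mir-126b, summed to 21.3 to 45.7 in old and to 17.6 to 77.6 in young libraries. Again young 4 and old 4 were highest. These rows ran in parallel (3.43 and 3.70 in old 1, 5.11 and 5.43 in young 4). They may therefore not be separate measurements, and whether they hold the same reads was not tested. The 6 epithelial markers summed to 30.1 to 264 and to 59.3 to 174, with old 4 highest and young 4 second. Nearly all of this sum was mir-205 (8.02 in old 4 and 7.35 in young 4 on the log2 scale). The others did not follow it, with mir-200c at 0 in old 4, mir-200b highest in young 3 (2.39), mir-141 highest in young 4 (2.89), and mir-200a and mir-429 at 0 throughout. The muscle markers summed to 2.26 to 3.54 M in old and to 1.32 to 4.62 M in young libraries, and young 4 was lowest. Nearly all of this sum was mir-486 (20.29 in young 4). mir-206, mir-133a-1 and mir-133a-2 were also lowest in young 4 (14.78, 11.91 and 11.28). mir-133b did not follow, with its lowest value in old 2 (10.17) and its highest in old 4 (13.28). The neural markers summed to 4.59 in old 4, their lowest library, and to at most 22.4, in old 3. The fibroblast and smooth muscle markers, 25135 to 59861, were highest in old 1. Most of this sum was mir-143 (15.56 in old 1). By contrast, mir-199a-1, mir-199a-2 and mir-199b were highest in old 4 (12.42, 11.82 and 11.03) and second in young 4 (12.12, 11.54 and 10.64). mir-214 was at 13.16 in old 2 and old 4 and at 13.07 in young 4, and mir-145a was highest in young 1 (9.70). The part of any of these in the family's values was not tested.

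The related cluster on chromosome X took another course. It holds mir-322, which carries the family seed, mir-503, whose seed is close to it but not the same, and mir-351, which has an unrelated seed; mir-322 and mir-503 are known to promote cell cycle exit in differentiating mouse myoblasts.
mmu-miR-503-5p: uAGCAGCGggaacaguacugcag
mmu-miR-351-5p: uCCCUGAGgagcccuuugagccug
mir-322 was at 9.06, 9.43, 9.37 and 8.92 in the old and at 8.99, 10.03, 9.71 and 7.89 in the young libraries. Its level per length was thus close to that of the mir-16 rows, but young 4, high for the family, was its lowest library. mir-503 was also lowest in young 4, at 6.95 against 8.74 to 9.68 in the other 7, and mir-351 at 15.50 against 16.31 to 18.66. None of the 3 passed the test between old and young (0.04, 0.28 and -0.30 on the log2 scale with SEs of 0.48, 0.59 and 0.62; limma adjusted p = 0.995 for each). The other precursors of the file with this seed, mir-6342, mir-6353 and mir-6419, were at 0 in all libraries.

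**Figure D4:**
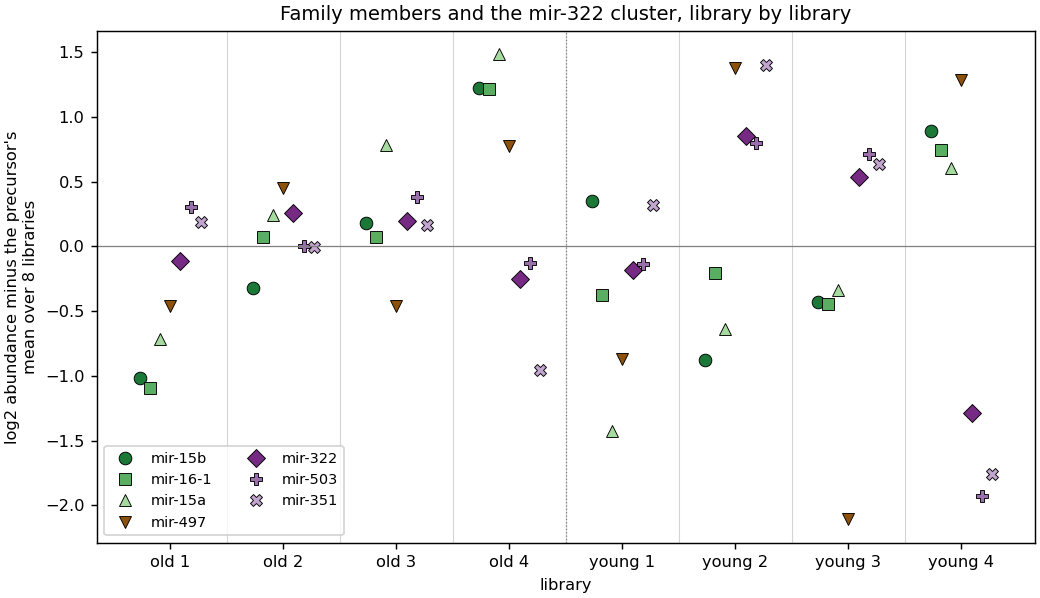
Log2 abundance minus the precursor's own mean over the 8 libraries (y axis) for 4 family members and the 3 members of the mir-322 cluster, by library (x axis). mir-15b and mir-16-1 are highest in old 4 (1.22 for both) and next in young 4 (0.89 and 0.75), where mir-322, mir-503 and mir-351 are lowest (-1.285 to -1.93).

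Likeness between precursors was measured as the root mean square (RMS) difference of their log2 values over the 8 libraries after each was centred on its own mean, given here as a description. mir-15b was 0.36 from the mir-16-2 row and 0.38 from the mir-16-1 row, which are not separate measurements. mir-15a and the mir-16-1 row were 0.51 apart, and 85 of the 354 precursors outside the family were closer to mir-16-1 than mir-15a was. mir-497 was 0.93 from mir-16-1 and 1.18 from mir-15b. The precursors closest to mir-15b outside the family were mir-34b (0.28), mir-23b (0.29), mir-23a (0.31), mir-155 (0.31) and mir-99a (0.35), against a median of 0.82 over the 354. Those closest to mir-16-1 were mir-34c (0.26), mir-34b (0.28), mir-219c (0.29), mir-5099 (0.31) and mir-23a (0.32), with a median of 0.68. No precursor came as close to mir-497, a row of few reads; the nearest were mir-671 (0.58), mir-204 (0.60), mir-6516 (0.64), mir-101a (0.64) and mir-212 (0.65). mir-322 was 1.24 from mir-15b and 1.08 from mir-16-1, and 76.5% and 74.6% of the other compared precursors were closer.

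Among miRNAs linked to proliferation, a list that includes mir-322, mir-503 and mir-351, 20 of 21 listed precursors were compared. Of these, 13 had a higher and 7 a lower mean in old libraries, and 0 passed, with a median difference of 0.05 (all compared precursors, -0.05). The most abundant were mir-92a-1, a member of the proliferative mir-17 cluster, at 18.66 ± 0.37 in the old and 18.92 ± 0.55 in the young libraries, and mir-351. let-7b, which like the miR-15 family targets cell cycle genes, measured 15.59 ± 0.30 and 15.23 ± 0.55, and let-7c-1 14.99 ± 0.27 and 14.77 ± 0.46 (SD, n = 4 each). The SEs of these last 2 differences were 0.33 and 0.31, smaller than those of every family member.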

How the data were processed

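Small RNA was isolated with a mirVana kit and sequenced, per the labels. The authors deposited 1 table of log2 values, rounded to 2 decimals, for 1181 precursors; the submitters' processing notes name BWA and mm10 with no version or role, while the counting rule, strand use, trimming and handling of multi-mapped reads were not given in the sources used here. Linear value times precursor length fell on whole multiples of a step for 99.1% to 100% of the values of up to 12 reads (111 to 216 per library, tolerance 0.1 read), as RPKM would. Read numbers and depths rest on this reading.

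limma 3.58.1 (R 4.3.3; eBayes with trend) was run on the deposited values of 359 precursors (linear value of 10 or more in 4 or more libraries), with Benjamini-Hochberg adjustment at 0.05. Ratios within libraries were tested by exact permutation over 70 arrangements. The test was checked on simulated data. Alternatives covered scale, filter, rescaling, model, block and single libraries. The labels do not say how cells were obtained, so p-values measure only the spread between these libraries. Every member row was named, with the 5 nearest precursors by profile for the most abundant member of each cluster and up to 4 of a list by level. The members, lists and tests were chosen with earlier results of these data known. RefSeq lengths were found for 1172 precursors, 357 of them compared; genes are from GENCODE M21. Permutations and figures used Python 3.11.15 with pandas 2.3.3, numpy 2.4.6, matplotlib 3.10.9 and scipy 1.17.1.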

Additional observations from a re-analysis of the deposited data

Results flagged for a closer look

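The ratio of mir-16-2 to mir-15b in old 2, -2.13 on the log2 scale, stood apart from the other 3 old libraries, which lay between -2.52 and -2.48. Young 2, at -1.78, was higher still. Chance flags about 1 in 20 groups of this size, and this was the only one among the 22 groups of old or young values of members and ratios examined.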

How the results depend on the processing

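Over the alternatives tried, 0 family members passed the threshold, and 0 of all compared precursors did except without both old 3 and young 4 (33, none of them in the family), libraries chosen with their values known. Adjusted p ranged from 0.459 to 1 for mir-15a, 0.850 to 1 for mir-15b, 0.847 to 1 for both mir-16 rows and 0.813 to 1 for mir-497. Leaving out single libraries gave differences of 0.55 to 1.29 for mir-15a, -0.37 to 0.38 for mir-15b, -0.245 to 0.525 for mir-16-1, -0.23 to 0.52 for mir-16-2 and -0.52 to 0.64 for mir-497. The sign also turned for mir-15b with array weights (-0.0087) and without both old 4 and young 4 (-0.067), and for mir-497 on log2(value + 10) (-0.077). Median-ratio, TMM and quantile rescaling turned no member's sign. The SE of mir-16-1 was 0.35, 0.35 and 0.40 under these, against 0.51 in the main test. That of mir-15a was 0.45, 0.46 and 0.52, against 0.62. The limma p of mir-15a was then 0.073, 0.064 and 0.071 unadjusted, and 0.972, 0.989 and 0.993 adjusted. For mir-497 the SE was 0.70, 0.72 and 0.93, against 0.82.

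The ratio of mir-16-1 to mir-15a kept its direction, from -0.92 to -0.54 without single libraries. It was past an unadjusted 0.05 in the main test but not on log2(value + 10) (-0.48) or after quantile normalization (-0.75), with an exact permutation p of 0.0857 for each, nor without old 1, old 2, old 3 or old 4 (0.0571 each, against 0.0286 without any single young library), and could not be past it without both old 4 and young 4 (-0.88) or without both old 3 and young 4 (-0.73), where the smallest possible p is 0.1. Without single libraries, mir-16-2 minus mir-15b gave -0.081 to 0.36, mir-497 minus mir-195a -0.29 to 0.965 and mir-16-1 minus mir-16-2 -0.038 to 0.0083; the highest of the first, without young 2, had an exact permutation p of 0.0286. The sign of mir-497 minus mir-195a turned on log2(value + 10) (-0.033), and that of mir-16-1 minus mir-16-2 after quantile normalization (0.063), without both old 4 and young 4 (0.0033) and without both old 3 and young 4 (0.023).

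With the replicate block 0 members passed, 39 precursors had an unadjusted p under 0.05 against 4 without it, and mir-15a kept its difference of 0.90 with an SE of 0.39; the ratio of mir-16-1 to mir-15a (-0.76) had a p of 0.125 by exact permutation, the smallest that 4 pairs allow. The labels give no pairing by number: deviations of same-numbered libraries correlated at -0.064, 0.43, 0.66 and 0.58 across precursors, and old 1 correlated best with young 4. Depth limits mir-195a and mir-497, at 5 to 76 reads.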
